A study of Homo sapiens with 27 samples.

Results

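The gene set examined was the mitochondrial protein import machinery of human cells, 34 nuclear genes chosen by name (the subunits of the TOM, TIM23, TIM22 and SAM complexes, the small TIM chaperones, the import motor, the presequence peptidase and the disulfide relay) out of 57905 gene identifiers in the table. Of these 34 genes, 33 had an identifier there. TIMM23 was not matched by its identifier and is not analysed here, and TOMM6 was listed at 0 in all 9 libraries. The annotated exons of TOMM6 lie entirely (100%) within those of a second protein-coding gene on the same strand, so this 0 does not measure its mRNA. The remaining 32 genes passed the filter on low values in every comparison, and their counts ranged from 313 (GFER) to 8652 (TOMM20) per library.

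RNA-seq libraries were made from U937 cells, a human myeloid leukemia cell line, either as control or after treatment with 0.8 mg/ml matrine, a plant alkaloid, for 30 min or 24 h. There were 3 libraries per group and 9 in all, and the same 3 control libraries served both times. The series holds 27 libraries, and those of the other cell lines are not analysed here. The culture time of the control cells is not given in the sources used here, so 24 h of matrine and 24 h of further culture cannot be told apart. The study's methods speak in general of independent replicates, but neither they nor the labels tie these libraries to separate cultures, and without that the p-values measure only the spread between these libraries.

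Total counts per library lay between 17314931 and 20796079 in the control, between 20402383 and 21930018 after 30 min and between 20366304 and 21849040 after 24 h. No pair of replicates was as similar as sampling noise alone would make them, and all 9 libraries were kept apart. Of 10 myelomonocytic markers, 8 reached 1 FPKM (fragments per gene length and sequencing depth) in at least 1 library, while CD68 and CSF1R stayed below it in all 9. The erythroid marker KLF1 reached that level while HBG1 was at 0 in all libraries, and the lymphoid marker CD79A reached it while CD3E and MS4A1 were at 0. The summed FPKM of the myelomonocytic markers was 2613 to 3011 in the control, 2740.0 to 2895 after 30 min and 3018 to 3182 after 24 h. The part of these markers in the results on import genes was not tested.

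Nearly all mitochondrial proteins are encoded in the nucleus, made in the cytosol and carried into the organelle. They enter through the TOM complex of the outer membrane and are then sorted. The SAM complex inserts barrel proteins into the outer membrane, small TIM chaperones escort hydrophobic proteins across the intermembrane space, the TIM22 complex inserts carriers into the inner membrane, and the TIM23 complex with its ATP-driven motor pulls proteins with a presequence into the matrix, where a peptidase removes the presequence. A disulfide relay traps small cysteine-rich proteins in the intermembrane space.

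A gene was called down-regulated or up-regulated when its adjusted p from edgeR was below 0.05 (Benjamini-Hochberg over all genes tested) and its fold change was at least 1.5. Percentages of the control for single genes are edgeR fold changes, which scale the libraries, and can differ from ratios of the FPKM beside them. Percentages for summed levels are ratios of mean FPKM. After 24 h of matrine, 16 of the 32 import genes tested (50%) were down-regulated, where 11.5% of all 12035 genes tested were. One gene, TIMM10B, was up-regulated, where 14.8% of all genes were. Of the other 15 import genes, 9 were lower at an adjusted p below 0.05 but by less than 1.5-fold, which makes 25 lower at that p (78.1%, against 32.5% of all genes). The remaining 6 had an adjusted p of 0.05 or more. The set was chosen with earlier results of these data known, so these shares are descriptions. The median log2 fold change of the 32 genes was -0.58 and that of all genes tested was -0.0022. Values of the import genes ranged from -1.14 for TOMM40 to 0.61 for TIMM10B, with 28 negative and 4 positive. The 3 libraries at 24 h all lay below the 3 control libraries for 25 import genes (31% of all genes tested) and all above them for 3, TOMM7, GRPEL2 and TIMM10B (38.7% of all genes). The share of counts from mRNAs of mitochondrial DNA was 3.26% to 3.32% in the control and 3.25% to 3.36% after 24 h.

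Summed over the gene set, the import mRNAs gave 1017, 1074 and 991 FPKM in the control libraries, 1072, 1023 and 1007 FPKM after 30 min, and 690.1, 699 and 706 FPKM after 24 h. The sums at 24 h lay below every other library and averaged 67.9% of the control, while the sums at 30 min overlapped those of the control. In RNA from a whole culture, less mRNA per cell and fewer cells holding the mRNA cannot be told apart.

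**Figure D1:**
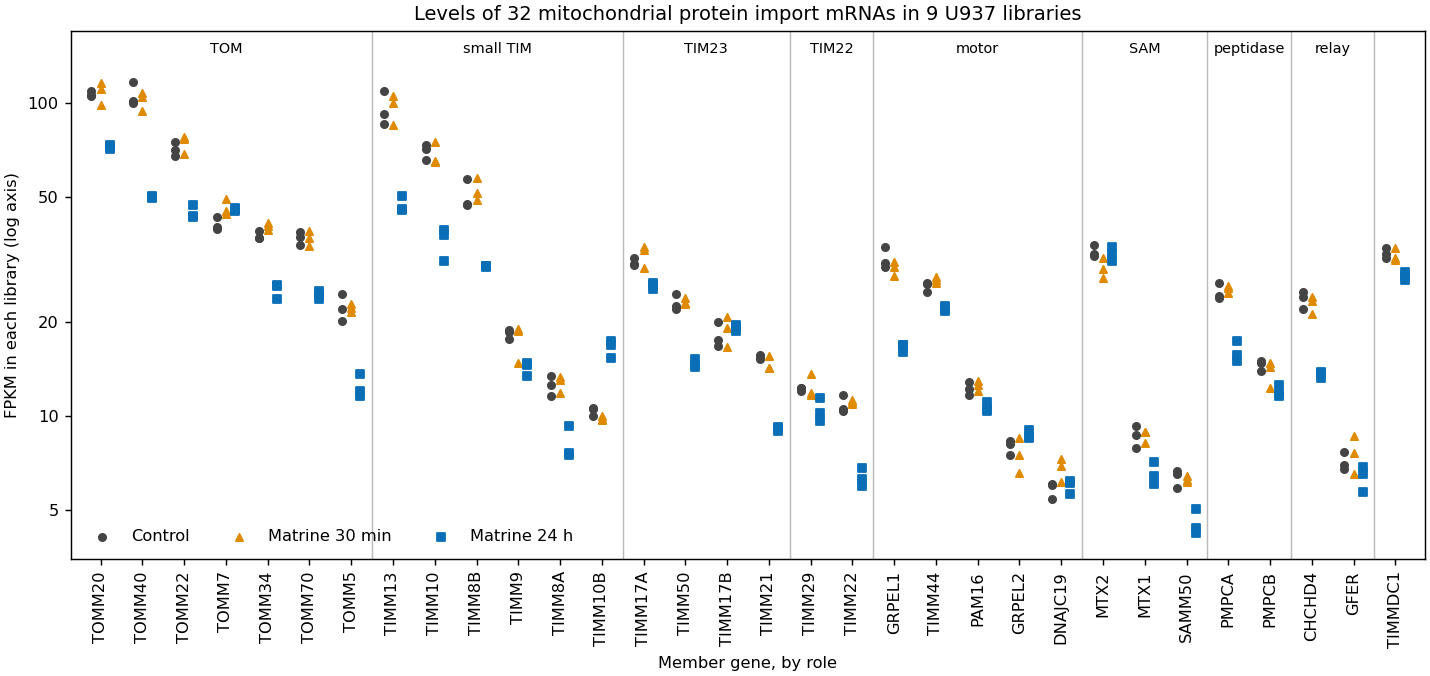
Level of each of the 32 import mRNAs in each U937 library, with FPKM on a log axis and the genes grouped by role along the horizontal axis. Each symbol is 1 library of control cells (circles), of 30 min matrine (triangles) or of 24 h matrine (squares), and for 25 genes the 3 squares lie below the 3 circles.

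The TOM complex is the entry gate, with TOMM40 as its pore, TOMM20, TOMM22 and TOMM70 as receptors and the small subunits TOMM5, TOMM6 and TOMM7 on its rim, and TOMM34 is a cytosolic cochaperone that works with it. After 24 h, 6 of the 7 genes tested were down-regulated, with a median log2 fold change of -0.67. Their summed level went from 423 ± 11.9 to 276 ± 2.44 FPKM (SD, n = 3), or 65.2% of the control, in a group that holds the most abundant mRNAs of the set. TOMM40 (ENSG00000130204) gave 99.9, 117 and 102 FPKM in the control, 105, 94.8 and 108 FPKM after 30 min, and 49.7, 50.04 and 50.7 FPKM after 24 h. All 3 libraries at 24 h were far below the other 6, and the log2 fold change at 24 h was -1.14 ± 0.0662 (SE) with an adjusted p of 6.65e-12. TOMM5 (ENSG00000175768) gave 21.96, 24.5 and 20.2 FPKM in the control, 22.2, 22.8 and 21.5 FPKM after 30 min, and 11.6, 12.0 and 13.7 FPKM after 24 h. The 24 h libraries of TOMM5 again did not overlap the others. Its log2 fold change was -0.90 ± 0.0814 with an adjusted p of 5.85e-09. However, TOMM5 shares 14.4% of its exon bases with 1 annotated protein-coding gene and 9.43% with another, both on its own strand.

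The receptor TOMM22 fell to 60.1%, TOMM70 to 63.0% and TOMM20 to 65.2% of their control levels, and TOMM34 fell to 64.6%. TOMM20 (log2 fold change -0.62) and TOMM34 (-0.63) lay close to the fold threshold, and lost the call with the filter raised to a mean FPKM of 5, with scaling by library totals and with limma. Each also lost it without a single library, TOMM20 at -0.58 without replicate 1 of the 24 h group and TOMM34 at -0.57 without replicate 2. TOMM7 (ENSG00000196683) was the exception in the complex. It gave 40.1, 43.2 and 39.5 FPKM in the control, 49.4, 45.1 and 44.3 FPKM after 30 min and 46.0, 45.4 and 46.2 FPKM after 24 h. Both treated groups lay above the control, yet the difference did not pass the test at 24 h, at a log2 fold change of 0.11 with a 95% interval from -0.033 to 0.25 and an adjusted p of 0.172. That interval excludes a decrease of the size seen for any of the 6 other TOM genes.

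Promoters of import genes were read from RefSeq (GRCh38.p14), in windows of 250 bases before to 50 after the start, for the 31 of 34 genes with an entry. Both strands were searched for the E-box CACGTG, the hexamer bound by MYC with MAX, and for GCGCANGCGC, the core of the site of NRF-1, a transcription factor of nuclear genes for mitochondria. NRF-1 cores were in 8 import promoters (25.8%, against 6.98% of the 27305 promoters in the table), those of TOMM7, TOMM20, TOMM34, TOMM40, TIMM29, PAM16, GRPEL2 and CHCHD4. The E-box was in 3 (9.68%, against 8.77% of all), those of TOMM20, TIMM10 and TIMM8A. Both shares of all promoters take in genes not tested in U937 cells, and shares among tested genes alone are not given here. The median log2 fold change at 24 h was -0.45 over the 8 genes with an NRF-1 core, 4 of them called, and -0.46 over the 21 genes tested without one, 10 of them called. The 3 genes with an E-box were all called at 24 h (median -0.68), as were 11 of 26 without one (median -0.38). Called here means lower or higher. The groups without a motif leave out the 3 genes with no promoter entry, so their medians and calls do not cover the whole set. A match of letters is a description and shows no binding. The 250 bases before the start are printed for 3 genes that fell, TOMM20 (chr1:235128838-235129087, minus strand), TOMM40 (chr19:44891004-44891253, plus strand) and CHCHD4 (chr3:14124871-14125120, minus strand), and for TOMM7 (chr7:22822850-22823099, minus strand), which did not pass the test. They are shown since all 4 hold an NRF-1 core while their mRNAs differ in what they did. Capitals mark the matches, on either strand, and TOMM20 holds both motifs.
TOMM20: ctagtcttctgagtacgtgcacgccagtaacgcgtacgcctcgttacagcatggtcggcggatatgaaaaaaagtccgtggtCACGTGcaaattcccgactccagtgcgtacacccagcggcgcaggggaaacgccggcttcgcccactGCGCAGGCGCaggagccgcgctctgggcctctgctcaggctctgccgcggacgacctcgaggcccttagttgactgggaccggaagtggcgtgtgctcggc
TOMM40: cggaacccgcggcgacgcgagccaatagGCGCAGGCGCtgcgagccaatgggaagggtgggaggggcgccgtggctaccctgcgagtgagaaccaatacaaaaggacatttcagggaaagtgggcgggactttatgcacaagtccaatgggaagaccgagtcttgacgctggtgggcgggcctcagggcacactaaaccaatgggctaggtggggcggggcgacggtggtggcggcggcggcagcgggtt
CHCHD4: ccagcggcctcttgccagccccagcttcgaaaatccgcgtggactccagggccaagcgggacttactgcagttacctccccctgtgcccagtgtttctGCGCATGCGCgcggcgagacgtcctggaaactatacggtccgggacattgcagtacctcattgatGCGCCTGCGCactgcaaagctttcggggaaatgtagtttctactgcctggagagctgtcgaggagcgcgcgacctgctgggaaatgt
TOMM7: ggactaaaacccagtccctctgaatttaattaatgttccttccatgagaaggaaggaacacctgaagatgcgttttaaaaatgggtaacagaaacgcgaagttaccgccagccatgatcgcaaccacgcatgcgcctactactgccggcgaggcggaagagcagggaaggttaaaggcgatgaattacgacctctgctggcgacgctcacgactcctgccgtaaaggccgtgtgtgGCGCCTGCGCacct

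Small TIM chaperones form ring-shaped hexamers in the intermembrane space that shield hydrophobic stretches of carrier and barrel proteins, with TIMM9 paired to TIMM10, TIMM8A and TIMM8B paired to TIMM13, and TIMM10B part of the TIM22 complex. Of the 6 genes, 4 were down-regulated at 24 h and 1 was up-regulated, with a median log2 fold change of -0.75. Their summed level went from 258 ± 20.01 to 153 ± 4.79 FPKM (SD, n = 3), or 59.1% of the control. TIMM13 (ENSG00000099800) gave 92.4, 109.7 and 86.1 FPKM in the control, 105, 85.4 and 99.9 FPKM after 30 min and 45.7, 46.0 and 50.4 FPKM after 24 h. The 24 h libraries lay far below the rest, at a log2 fold change of -1.08 ± 0.0875 (SE) and an adjusted p of 1.13e-09. TIMM13 shares 20.1% of its exon bases with TMPRSS9 on the opposite strand, and the strand setting of the counting is not given.

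TIMM10 and TIMM10B, which are related in sequence, went in opposite directions. TIMM10 (ENSG00000134809) gave 71.2, 73.8 and 65.9 FPKM in the control, 75.3, 64.8 and 65.5 FPKM after 30 min, and 31.3, 38.0 and 39.5 FPKM after 24 h. By edgeR, TIMM10 fell to 49.5% of the control at 24 h, at a log2 fold change of -1.01 ± 0.0923 and an adjusted p of 6.12e-09. Its 24 h libraries lay below all others. TIMM10B (ENSG00000132286) gave 10.6, 10.5 and 9.97 FPKM in the control, 9.70, 9.97 and 9.77 FPKM after 30 min, and 16.9, 17.3 and 15.3 FPKM after 24 h. It was the 1 import gene that was up-regulated. By edgeR it stood at 153% of the control, at a log2 fold change of 0.61 ± 0.0743 and an adjusted p of 4.16e-07. The call was lost on the fold threshold with no filter on low values and with TMM over all genes (both 0.55), and without replicate 3 of the control (0.57), while all 3 libraries at 24 h stayed above the other 6. TIMM10B shares 13.2% of its exon bases with a further protein-coding gene on its own strand.

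TIMM8A and TIMM8B, the partners of TIMM13, both fell. TIMM8A (ENSG00000126953) gave 12.6, 11.6 and 13.4 FPKM in the control, 11.8, 13.4 and 13.1 FPKM after 30 min and 9.26, 7.64 and 7.49 FPKM after 24 h. TIMM8B (ENSG00000150779) gave 47.3, 57.4 and 47.7 FPKM in the control, 57.6, 49.2 and 51.5 FPKM after 30 min and 30.0, 30.2 and 30.2 FPKM after 24 h. Neither gene had overlapping groups at 24 h, and the log2 fold changes were -0.68 ± 0.0916 for TIMM8A (adjusted p 1.54e-06) and -0.81 ± 0.0858 for TIMM8B (adjusted p 5.56e-08). TIMM8B shares 30.1% of its exon bases with NKAPD1 on the opposite strand. TIMM9, the partner of TIMM10, went from 18.4 ± 0.620 to 14.2 ± 0.744 FPKM and was lower at an adjusted p of 0.000718, but by less than 1.5-fold (log2 fold change -0.42). TIMM9 shares 12.3% of its exon bases with TOMM20L and 9.89% with KIAA0586, both on the opposite strand.

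The TIM23 complex is the channel for proteins with a presequence, in which TIMM50 is the receptor, TIMM17A and TIMM17B are alternative forms of a core subunit and TIMM21 contacts the TOM complex. After 24 h, 2 of the 4 genes tested were down-regulated, and the summed level was 78.9% of the control. TIMM21 (ENSG00000075336) gave 15.5, 15.7 and 15.2 FPKM in the control, 14.3, 15.6 and 14.2 FPKM after 30 min and 9.23, 8.96 and 9.18 FPKM after 24 h. The 24 h libraries did not overlap the others, and the log2 fold change was -0.82 ± 0.0695 with an adjusted p of 2.3e-09. TIMM50 fell from 23.0 ± 1.32 to 14.7 ± 0.456 FPKM, and its edgeR fold change was 61.4% of the control. TIMM17A (ENSG00000134375) gave 30.6, 32.1 and 30.4 FPKM in the control, 34.7, 34.0 and 29.7 FPKM after 30 min and 26.7, 26.2 and 25.5 FPKM after 24 h. It was lower at an adjusted p of 0.000401 but under the fold threshold, at a log2 fold change of -0.31. TIMM17B (ENSG00000126768) gave 16.8, 20.03 and 17.6 FPKM in the control, 20.8, 16.6 and 19.2 FPKM after 30 min and 19.6, 19.3 and 18.7 FPKM after 24 h. Its groups overlapped, and its log2 fold change of 0.022 had a 95% interval from -0.16 to 0.20. The sign of this value changed with the scaling, and TIMM17B shares 15.5% of its exon bases with PQBP1.

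The TIM22 complex inserts carrier proteins into the inner membrane, with TIMM22 as its channel and TIMM29 as a subunit that helps to hold it together. TIMM22 (ENSG00000177370) gave 10.4, 11.6 and 10.5 FPKM in the control, 11.1, 10.9 and 11.3 FPKM after 30 min and 5.99, 6.84 and 6.31 FPKM after 24 h. All 3 libraries at 24 h lay below the other 6, and TIMM22 fell at a log2 fold change of -0.83 ± 0.0834 with an adjusted p of 2.78e-08. TIMM29 was at 82.2% of the control and lower at an adjusted p of 0.0109, under the fold threshold. TIMMDC1, a relative of TIMM17 that helps to assemble respiratory complex I, was at 81.4%, also lower under the threshold (adjusted p 0.00044), and shares 29.4% of its exon bases with CD80.

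The import motor pulls presequence proteins into the matrix. TIMM44 anchors the mitochondrial HSP70 (HSPA9) to the channel, DNAJC19 and PAM16 are its J-type and J-like cochaperones, and GRPEL1 and GRPEL2 exchange its nucleotide. Only 1 of these 5 genes, GRPEL1, was down-regulated at 24 h, and the median log2 fold change of the group was -0.25. GRPEL1 (ENSG00000109519) gave 30.8, 34.6 and 30.0 FPKM in the control, 31.0, 30.1 and 28.1 FPKM after 30 min and 16.1, 16.9 and 16.9 FPKM after 24 h. GRPEL1 fell to 50.1% of the control by edgeR at 24 h, at a log2 fold change of -0.998 ± 0.0685 and an adjusted p of 8.98e-11. Its 24 h libraries lay below all others. GRPEL2 (ENSG00000164284) gave 8.31, 7.51 and 8.13 FPKM in the control, 7.48, 8.48 and 6.56 FPKM after 30 min and 8.99, 8.59 and 8.49 FPKM after 24 h. Its 3 libraries at 24 h lay just above the control, but the log2 fold change of 0.064 did not pass the test and its 95% interval ran from -0.12 to 0.24. The interval of GRPEL1 ended at -0.85 and did not meet that of GRPEL2. TIMM44 (81.3% of the control) and PAM16 (83.9%) were lower at adjusted p of 0.000104 and 0.00777, both under the fold threshold. PAM16 shares 22.4% of its exon bases with the readthrough gene CORO7-PAM16. DNAJC19 was at 5.82 ± 0.356 FPKM in the control and 5.98 ± 0.306 FPKM at 24 h, with a log2 fold change of -0.021 (95% interval -0.22 to 0.17) whose sign changed with the scaling.

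The SAM complex folds barrel proteins into the outer membrane, with SAMM50 as its core and the metaxins MTX1 and MTX2 on its cytosolic side. None of the 3 genes was called at 24 h by edgeR or by DESeq2, although SAMM50 and MTX1 were lower at an adjusted p below 0.05, and their summed level was 90.7% of the control. SAMM50 went from 6.37 ± 0.416 to 4.56 ± 0.442 FPKM at an adjusted p of 1.12e-05, with a log2 fold change of -0.54 just under the threshold. It passed the threshold without filter, with TMM over all genes (both -0.59), without replicate 1 of the control (-0.59) and without replicate 3 of the 24 h group (-0.62). MTX1 (ENSG00000173171) gave 8.67, 9.28 and 7.89 FPKM in the control, 8.92, 8.21 and 8.88 FPKM after 30 min and 6.04, 6.43 and 7.13 FPKM after 24 h. The 24 h libraries lay below all others, and MTX1 was lower at a log2 fold change of -0.46 and an adjusted p of 0.000207. This value is uncertain since a pseudogene copy may take some of its reads, which was not tested. MTX1 also shares 17.3% of its exon bases with a lncRNA and 4.45% with THBS3, both on the opposite strand. MTX2 (ENSG00000128654) gave 32.5, 35.1 and 33.1 FPKM in the control, 29.5, 32.1 and 27.6 FPKM after 30 min and 34.7, 32.9 and 31.3 FPKM after 24 h. MTX2, the most abundant mRNA of the 3, overlapped between control and 24 h, at a log2 fold change of -0.086 with a 95% interval from -0.24 to 0.066.

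The matrix peptidase that removes presequences is a pair of PMPCA, which holds the substrate, and PMPCB, which cuts it. PMPCA (ENSG00000165688) gave 24.2, 26.7 and 23.8 FPKM in the control, 25.6, 24.8 and 26.1 FPKM after 30 min and 15.6, 15.0 and 17.4 FPKM after 24 h. PMPCB (ENSG00000105819) gave 14.8, 13.9 and 15.0 FPKM in the control, 14.7, 14.4 and 12.3 FPKM after 30 min and 11.7, 11.6 and 12.6 FPKM after 24 h. Both lay below the control in all 3 libraries at 24 h, but PMPCA was called, at a log2 fold change of -0.70 ± 0.0685 (adjusted p 1.94e-08), and PMPCB was not, at -0.34 ± 0.0752 (adjusted p 0.000528). PMPCB shares 8.31% of its exon bases with DNAJC2 on the opposite strand and 7.02% with a lncRNA on its own strand. In the disulfide relay, CHCHD4 (also MIA40) oxidizes cysteines of incoming proteins and GFER reoxidizes CHCHD4. CHCHD4 (ENSG00000163528) gave 24.9, 21.95 and 24.0 FPKM in the control, 23.3, 24.1 and 21.2 FPKM after 30 min and 13.8, 13.7 and 13.2 FPKM after 24 h. GFER (ENSG00000127554) gave 6.78, 7.69 and 6.99 FPKM in the control, 7.60, 6.54 and 8.61 FPKM after 30 min and 6.54, 5.72 and 6.88 FPKM after 24 h. CHCHD4 fell at 24 h at a log2 fold change of -0.85 ± 0.0798 (adjusted p 9.05e-09), with no overlap with the control. The groups of GFER overlapped, at -0.22 with a 95% interval from -0.45 to 0.0051 and an adjusted p of 0.0818. GFER shares 41.5% of its exon bases with a lncRNA on the opposite strand.

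**Figure D2:**
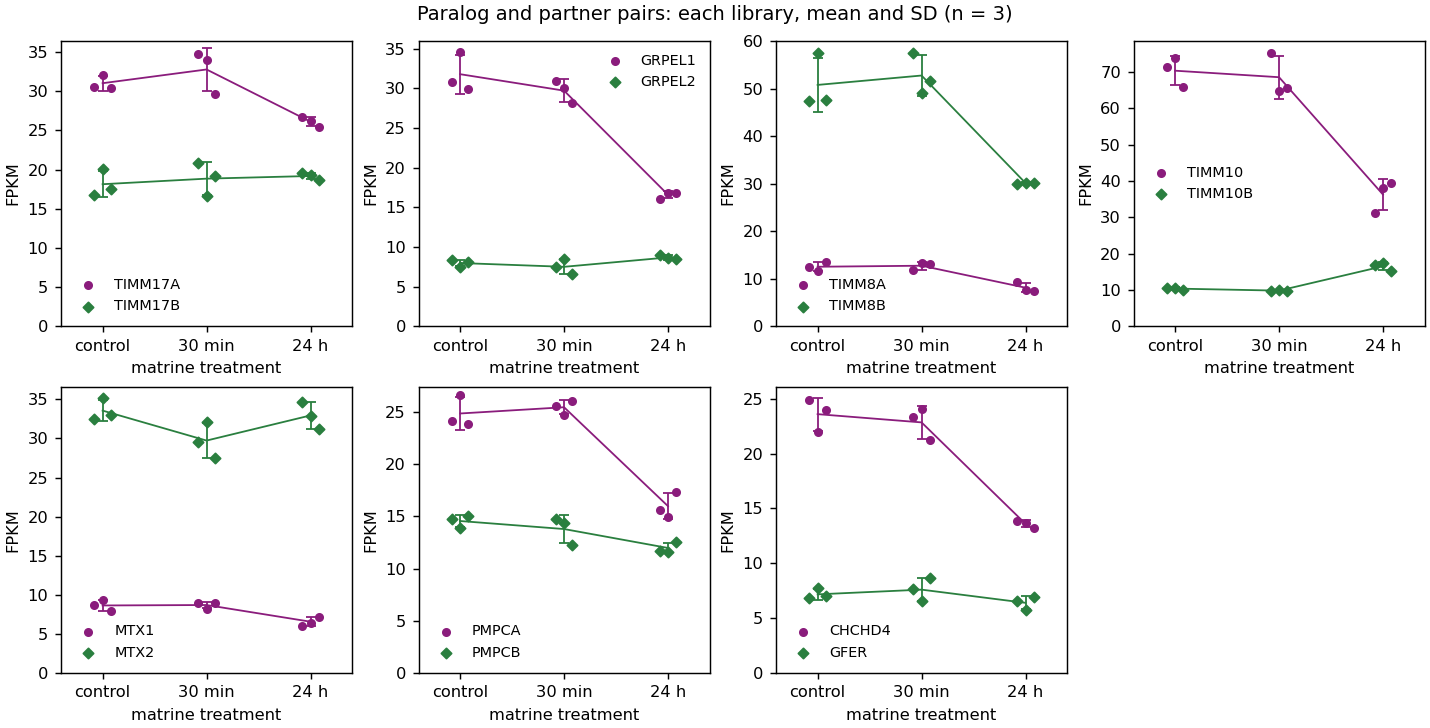
Levels in FPKM of 7 pairs of related or partner import genes in control, 30 min and 24 h libraries, each point being 1 library, with lines through the means and bars of 1 SD (n = 3). TIMM10 fell from a mean of 70.3 to 36.2 FPKM while TIMM10B rose from 10.4 to 16.5 FPKM, and GRPEL1 fell to 16.6 FPKM while GRPEL2 stood at 8.69 FPKM against 7.98 FPKM in the control.

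At 30 min, none of the 32 import genes was called in either direction by edgeR or by DESeq2, where 0.544% of 11587 genes tested were down-regulated and 0.0949% up-regulated (0.639% in either direction). None passed an adjusted p below 0.05 alone either, as 1.32% of all genes did with a lower and 0.293% with a higher level. The lowest adjusted p of an import gene was 0.200 (TOMM7), 20 log2 fold changes were positive and 12 negative, and the median was 0.028, against -0.0030 for all genes tested. At an unadjusted p below 0.05 there were 3 import genes, where 11.1% of all genes reached it. These were TOMM7 at 0.19, DNAJC19 at 0.23 and MTX2 at -0.16 on the log2 scale. DNAJC19 (ENSG00000205981) gave 6.05, 6.0 and 5.41 FPKM in the control and 6.93, 7.29 and 6.14 FPKM after 30 min, so that its groups did not overlap. TOMM7, TOMM34 and DNAJC19 lay above the control in all 3 libraries (4.89% of all genes did) and MTX2 lay below it (8.91%). The 95% intervals of all 32 genes at 30 min lay between -0.31 (MTX2) and 0.43 (DNAJC19), short of the 1.5-fold threshold of 0.58 on the log2 scale.

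**Figure D3:**
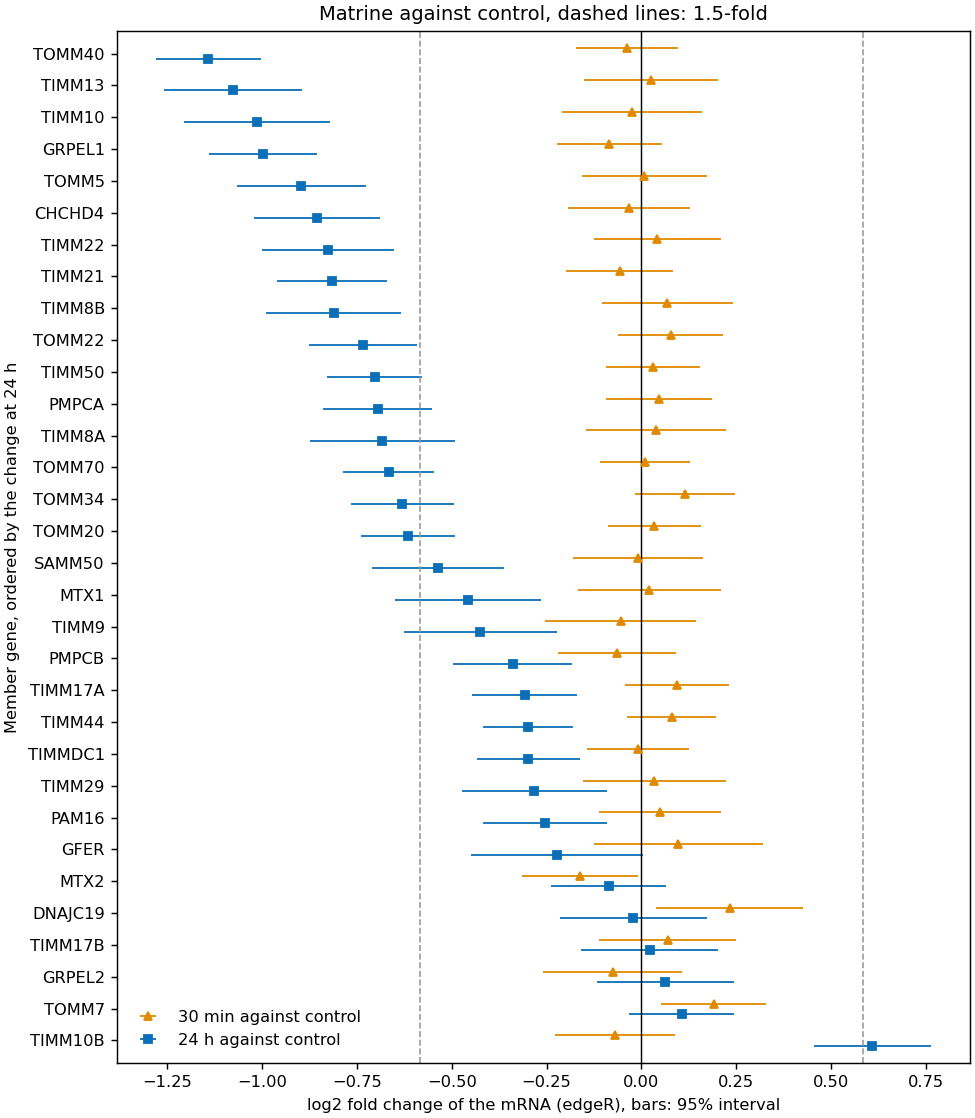
Log2 fold change of each of the 32 import mRNAs against control after 30 min (triangles) and 24 h (squares) of matrine from edgeR, with bars for the 95% interval and dashed lines at 1.5-fold. The values at 24 h run from -1.14 (TOMM40) to 0.61 (TIMM10B), and those at 30 min from -0.16 to 0.23 around 0.

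The comparison of 24 h with 30 min asks what changed between the 2 times of treatment, and rests on no control level. Of the 32 import genes, 16 were down-regulated (11.3% of 11981 genes tested) and TIMM10B was up-regulated (15.7% of all). The median log2 fold change was -0.59, against 0.022 for all genes tested, and 27 import genes were lower at an adjusted p below 0.05 (32.1% of all genes). TOMM40 and TIMM13 had the lowest values, both -1.10, and TIMM10B the highest, 0.68 (adjusted p 8.6e-08). PMPCB was lower than at 30 min at an adjusted p of 0.003, though its libraries at the 2 times overlapped. All 3 libraries at 24 h lay below all 3 at 30 min for 24 import genes (28.6% of all genes tested) and above them for 2, GRPEL2 and TIMM10B (39.9%).

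Among the import mRNAs, those with a high level in control cells tended to have the lower log2 fold change at 24 h, with a Spearman rho of -0.46 and a Pearson r of -0.51 over 32 genes. Over all 12035 genes tested the same measures were -0.37 and -0.37. These are descriptions across genes of the same libraries, which are not independent, and the control level enters both axes. TOMM40 and TIMM13 stood at 106 and 96.0 FPKM in the control and fell most, whereas TOMM20, at 107 FPKM, fell least of the called genes.

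**Figure D4:**
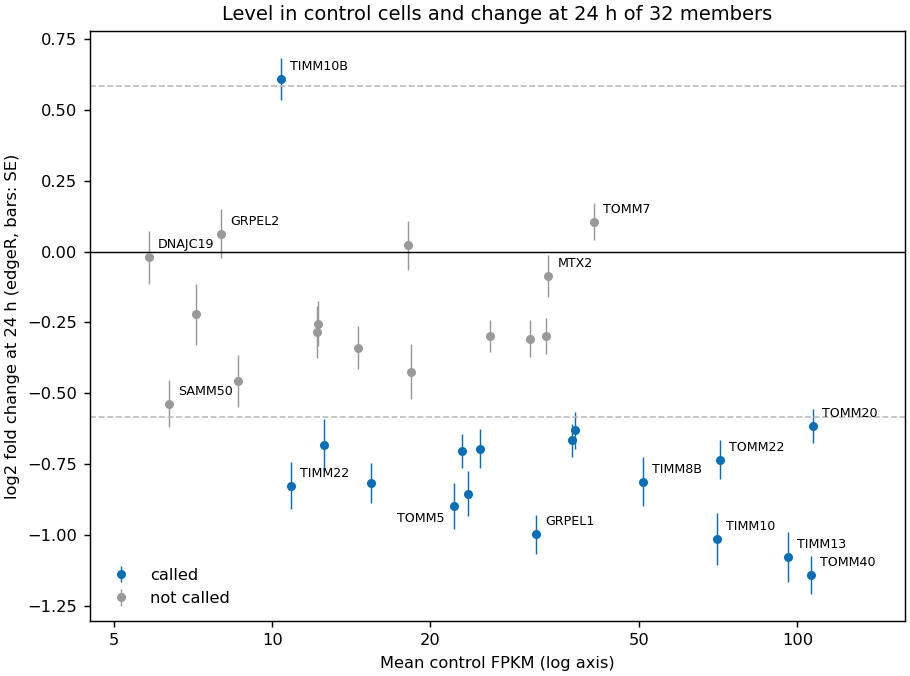
Mean control level in FPKM (log axis) of each of the 32 import mRNAs against its log2 fold change after 24 h, with bars of 1 SE from edgeR and dashed lines at 1.5-fold. Called genes are dark, and the pair with levels of 106 and 96.0 FPKM at the lower right (TOMM40 and TIMM13) lies furthest below 0.

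Other genes of the pathway and of mitochondrial upkeep were read from 6 lists for comparison, each against the same 11.5% and 14.8% of all genes called lower and higher at 24 h. Of 18 tested import factors outside the gene set, 6 were down-regulated and none up-regulated, with a median log2 fold change of -0.27. The lowest were the cytosolic chaperone HSPA8 (-1.51), its J-protein partner DNAJA1 (-1.07) and the intermediate peptidase MIPEP (-0.81). HSPA8 gave 398, 384 and 380.2 FPKM in the control and 142, 139 and 144 FPKM at 24 h. TIMM23B, a near-identical copy of TIMM23, was also called (-0.67), but its reads cannot be separated with certainty from those of TIMM23. Of 14 matrix chaperones and mitochondrial proteases, 7 were down-regulated and none up-regulated, with a median of -0.58. The 7 were HSPA9, HSPD1, HSPE1, TRAP1, DNAJA3, CLPP and CLPX. LONP1, YME1L1, AFG3L2, SPG7, OMA1, HTRA2 and PARL were not called. TRAP1 stood at -1.43, the chaperonin HSPD1 at -1.17, its lid HSPE1 at -1.08 and the motor chaperone HSPA9 at -0.64. HSPA9 gave 156, 153 and 159 FPKM in the control and 104, 105 and 103 FPKM at 24 h.

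The MICOS complex and prohibitins shape the cristae of the inner membrane. Of 10 such genes tested, 4 were down-regulated (median -0.55), led by CHCHD6 (-0.96), PHB2 (-0.75) and APOOL (-0.69). Of 17 small proteins with twin cysteine motifs, the kind that the CHCHD4 and GFER relay oxidizes, 3 were down-regulated (median -0.36), namely COA4 (-0.77), TRIAP1 (-0.72) and CHCHD10 (-0.65). Of 13 mRNAs transcribed from mitochondrial DNA none was called in either direction by edgeR or by DESeq2, 6 were lower at an adjusted p below 0.05, and the values ran from -0.41 (MT-ATP8) to 0.17 (MT-ND6) with a median of -0.14.

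Nuclear regulators of mitochondrial biogenesis formed the last list. Of 12 tested, 6 were down-regulated at 24 h and ATF5 was up-regulated, with a median of -0.53. MYC stood at -2.30, and the mitochondrial transcription factors TFB2M and TFB1M at -1.08 and -1.02. MYC gave 204, 213 and 204 FPKM in the control, 49.1, 55.1 and 58.0 FPKM after 30 min and 42.2, 46.1 and 43.1 FPKM after 24 h. It was the 1 gene of these 6 lists that was called at 30 min (-1.93). ATF5, a factor of the mitochondrial stress response, gave 17.04, 18.9 and 18.4 FPKM in the control and 28.8, 29.2 and 29.1 FPKM at 24 h (0.62). The call of ATF5 was lost without replicate 1 of the control and with TMM over all genes. With no filter on low values, where PPARGC1A was also tested, 1 regulator was called higher. Which gene it was is not shown here. PPARGC1A, also on this list, was not tested in the main fit because its mean FPKM was under the filter. It gave 0.67, 0.73 and 0.74 FPKM in the control and 1.23, 1.22 and 1.05 FPKM at 24 h.

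**Figure D5:**
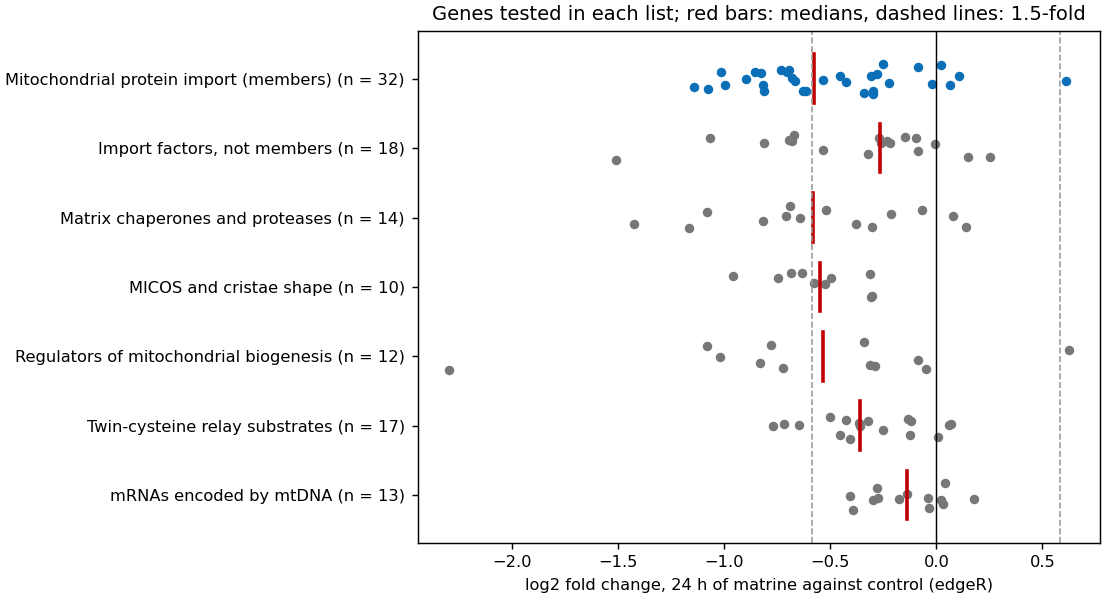
Log2 fold change after 24 h of matrine against control from edgeR for every tested gene of the import set and of 6 other lists, each point being 1 gene, with bars at the medians and dashed lines at 1.5-fold. The import set has its median at -0.58, the list of matrix chaperones and proteases at -0.58 and the mRNAs of mitochondrial DNA at -0.14.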

How the data were processed

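RNA-seq of U937 cells was analysed in 9 libraries, grouped by the treatment and time in their labels. The authors trimmed reads with cutadapt (1.9.1), mapped them with HISAT2 (2.0.1) and counted them per gene with HTSeq (0.6.1), versions being those of the submitters' processing notes. They deposited raw counts and FPKM values, rounded to 2 decimals, for 57905 Ensembl identifiers. The labels and the paper name different genome builds, so no coordinates of the files are given. Annotation release, strand setting and treatment of reads with several hits are not given in the sources used here. Symbols (51996 matched) and exon overlaps came from GENCODE release 44, in which 17 members overlap another gene.

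The counts were tested with edgeR 4.0.16 in R 4.3.3 (quasi-likelihood test, TMM, 1 fit of the 9 libraries, no block), over genes with a mean FPKM above 1 in the 6 libraries of a comparison. A call took an adjusted p (Benjamini-Hochberg) under 0.05 with a change of 1.5-fold or more. Each SE was obtained by dividing the log2 fold change by the root of F. An exact permutation test of 3 against 3 libraries cannot go below p = 0.1, so single genes rest on the model. The script was tested on simulated data.

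The members and lists were chosen with earlier results of these data known. Values per library were given for the 8 largest decreases, for called increases and for 7 fixed pairs, and up to 3 called genes at each end of other lists were named. Values of HSPA9, HSPA8, TIMM23B, DNAJC19 and TOMM7 were added after they were seen. Alternatives covered the filter, the scaling, DESeq2 1.42.0, limma 3.58.1 on log2(FPKM + 0.1) and log2(FPKM + 1), the fold threshold, a replicate block, fits of the 6 compared libraries alone, and fits lacking each library in turn. TMM over all genes was added after the data were seen. Protein sequences were not used here, and some cell type markers are not reported here.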

Additional observations from a re-analysis of the deposited data

Results flagged for a closer look

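The effects at 30 min and at 24 h differed for 17 import genes by the test of the difference itself, which is the contrast of 24 h with 30 min since both effects share the control libraries (edgeR, adjusted p below 0.05 and at least 1.5-fold), where 27.1% of all 11981 genes tested were called in either direction. The log2 fold change at 24 h minus that at 30 min was -1.10 for both TOMM40 and TIMM13, -0.99 for TIMM10, -0.91 for GRPEL1, -0.90 for TOMM5, -0.88 for TIMM8B and -0.87 for TIMM22. It was -0.82 for CHCHD4, -0.81 for TOMM22, -0.76 for TIMM21, -0.75 for TOMM34, -0.74 for PMPCA and -0.73 for TIMM50. The smallest negative differences among the genes called were -0.72 for TIMM8A, -0.68 for TOMM70 and -0.65 for TOMM20, and TIMM10B differed by 0.68 in the other direction. The call of TOMM20 was lost at a mean FPKM above 5 (-0.57), with library totals (-0.58) and with limma at both pseudocounts (-0.58 and -0.57), and that of TOMM70 with limma on log2(FPKM + 1) (-0.58). In each of these genes the 3 libraries at 24 h lay on 1 side of the 3 libraries at 30 min, as did 28.6% of all genes below and 39.9% above.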

How the results depend on the processing

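Directions of all called import genes held in every alternative run. Members called lower at 24 h were 25 at an adjusted p alone and 3 at 2-fold, against 16. Those called lower against 30 min were 27, then 26 at 1.2-fold and 2 at 2-fold. The member called higher, TIMM10B, was lost (0 left) with no filter, with TMM over all genes, without control replicate 3 and at 2-fold, and against 30 min at 2-fold (0). The median of -0.58 became -0.63 with no filter and with TMM over all genes, -0.50 at FPKM above 5, -0.52 with library totals and with limma at 0.1, -0.48 with limma at 1, and -0.62 to -0.53 with each library left out. TMM over all genes moved the median of all genes to -0.059 and library totals to 0.056, and called 1652 and 1173 genes lower and 1571 and 1997 higher, against 1387 and 1785.

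Import factors called lower were 3 at FPKM above 5 and with limma at 1, 13 at an adjusted p alone (1 higher) and 2 at 2-fold. MICOS genes lower were 2, 2, 10 (also at 1.2-fold) and 0 under the same settings. Matrix chaperones and proteases lower were 11 at an adjusted p alone and 3 at 2-fold, regulators lower 3 at 2-fold, and twin-cysteine genes lower 9 at an adjusted p alone or 1.2-fold and 0 at 2-fold. mRNAs of mitochondrial DNA lower were 6 at an adjusted p alone and 5 at 1.2-fold. Regulators higher went to 0 with TMM over all genes, at 2-fold and without control replicate 1 (leaving out each library gave 0 to 1). Fewer genes are tested at FPKM above 5, and the other causes were not tested.

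Values near 0 changed sign. DNAJC19 was 0.052 at FPKM above 5, 0.038 with library totals, 0.039 and 0.034 with limma, and -0.076 to 0.039 with each library left out. TIMM17B was -0.0347 with no filter and with TMM over all genes, and -0.036 to 0.12 with each library left out. TIMM8A lost its call with limma at 1 (-0.57).

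Libraries with the same replicate number shared only a number: their deviations correlated at -0.13 to 0.090, and a library correlated best with its own number in 5 of 18 cases. With the replicate block, 16 members were lower and 1 higher at 24 h, as without it, with a median of -0.58, and 1381 genes were lower and 1780 higher over all. The block changed no call of the members named and no count of the other lists, and gave 1351 genes lower and 1893 higher against 30 min, where 1354 and 1887 were called without it. With totals from 17314931 counts per library, depth limits GFER and DNAJC19 most among the members (313 and 336 counts at the lowest).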
